A study of Arabidopsis thaliana with 14 samples.

Results

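Seedlings of Arabidopsis thaliana that carried 35S:YFP-AFL1 were compared with wild-type seedlings after both had been held at low water potential. The comparison took the 3 arrays titled 35S-AFL1_stress against the 4 arrays titled Wild type_stress, 7 of the 14 arrays of the series. The other 7 arrays were of the same genotypes on control plates. The transgene drove a fusion of yellow fluorescent protein and AFL1 (locus AT3G28270, At14a-like 1) from the 35S promoter, a viral promoter active in most plant tissues, in the Col-0 background of the wild type. The number of transgenic lines and of seedlings pooled per array was not given in the labels. All seedlings grew for 7 days under continuous light and were moved for 10 h to agar infused with polyethylene glycol, an osmolyte too large to enter the cell wall, at -1.2 MPa (unstressed seedlings went to fresh control agar). Total RNA of whole seedlings was hybridised to single-colour Agilent arrays. A level below is the log2 processed signal of a gene relative to the 75th percentile of its array, and a difference is 35S:YFP-AFL1 minus wild type on that scale, with its SE from limma. Levels were not compared between genes.

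Low water potential draws water from plant cells, and Arabidopsis answers it with abscisic acid (ABA), dehydration-protective proteins and proline, and with slower growth. AFL1 is a stress-induced protein of the At14a-like family, known for promoting growth and proline accumulation when it is overproduced at low water potential. It is known to bind the protein disulfide isomerase PDIL1-1, the endoplasmic reticulum (ER) body protein NAI2 and an alpha subunit of the clathrin adaptor AP2.

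The file headers placed the 3 35S:YFP-AFL1 arrays on slide 5 beside wild-type replicate 1, wild-type replicate 2 on slide 2, and wild-type replicates 3 and 4 on slide 3. Wild-type replicate 1 correlated across genes at 0.973 to 0.982 with the 35S:YFP-AFL1 arrays and at 0.936 to 0.959 with the other wild-type arrays. The first principal component of the 7 arrays held 58.3% of their variance, with slide 5 on one side and the other slides on the opposite side. The values of wild-type replicate 1 are therefore given first among the wild-type values below, and a within-slide difference is the one against this array alone, from the fit with slide as a block. The other wild-type arrays share no slide with 35S:YFP-AFL1, so that against them slide and genotype cannot be told apart. Of 18307 genes tested, 2387 (13.0%) were called between wild-type replicate 1 and the other 3 wild-type arrays. Between low water potential and control plates 63.3% of genes were called in 35S:YFP-AFL1 seedlings and 64.1% in wild type. The control arrays had a like layout. The 3 35S:YFP-AFL1 control arrays shared slide 4 with wild-type control replicate 1 alone, and the other wild-type control arrays were on slides 1 and 2. Slide and genotype are thus also mixed on control plates, and a difference within slide 4 is against that 1 control array. For 35S:YFP-AFL1 slide and treatment cannot be told apart either, as its stressed arrays were all on slide 5 and its control arrays all on slide 4. The labels do not say whether replicates were separate cultures, so p-values measure the spread between these samples only.

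AFL1 itself did not separate the genotypes at low water potential. Its level was 4.05, 4.08 and 3.82 in 35S:YFP-AFL1 seedlings, against 3.47, 3.79, 3.33 and 4.08 in wild type. The highest wild-type array lay level with the highest 35S:YFP-AFL1 array, and the groups overlapped. The difference was 0.32 ± 0.26 (SE, n = 3 and 4, limma adjusted p = 0.526, 95% interval -0.25 to 0.88), and within slide 5 it was 0.52. On control plates it had been 2.41, and within slide 4 it was 1.68. The other 2 probes of AFL1 gave 0.26 and -0.24. The files do not say whether these probes read the transgene, the endogenous gene or both. None of the genes of the AFL1-binding proteins was called. PDIL1-1, which forms disulfide bonds in the ER, differed by 0.28 (within slide 5 -0.15), and the AP2 subunit gene ALPHA-ADR by -0.03 (within slide 5 -0.11). NAI2, needed for ER bodies, stood at 2.03, 1.61 and 1.498 in 35S:YFP-AFL1 seedlings, against 2.73, 0.87, 0.99 and 1.85 in wild type, a difference of 0.10 that was -1.02 within slide 5. AT14A, of the same family as AFL1, differed by -0.55 (adjusted p = 0.201) and by 0.05 within slide 5. The gene table gives the name AT14A to neighbouring copies, which were not told apart here.

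**Figure D1:**
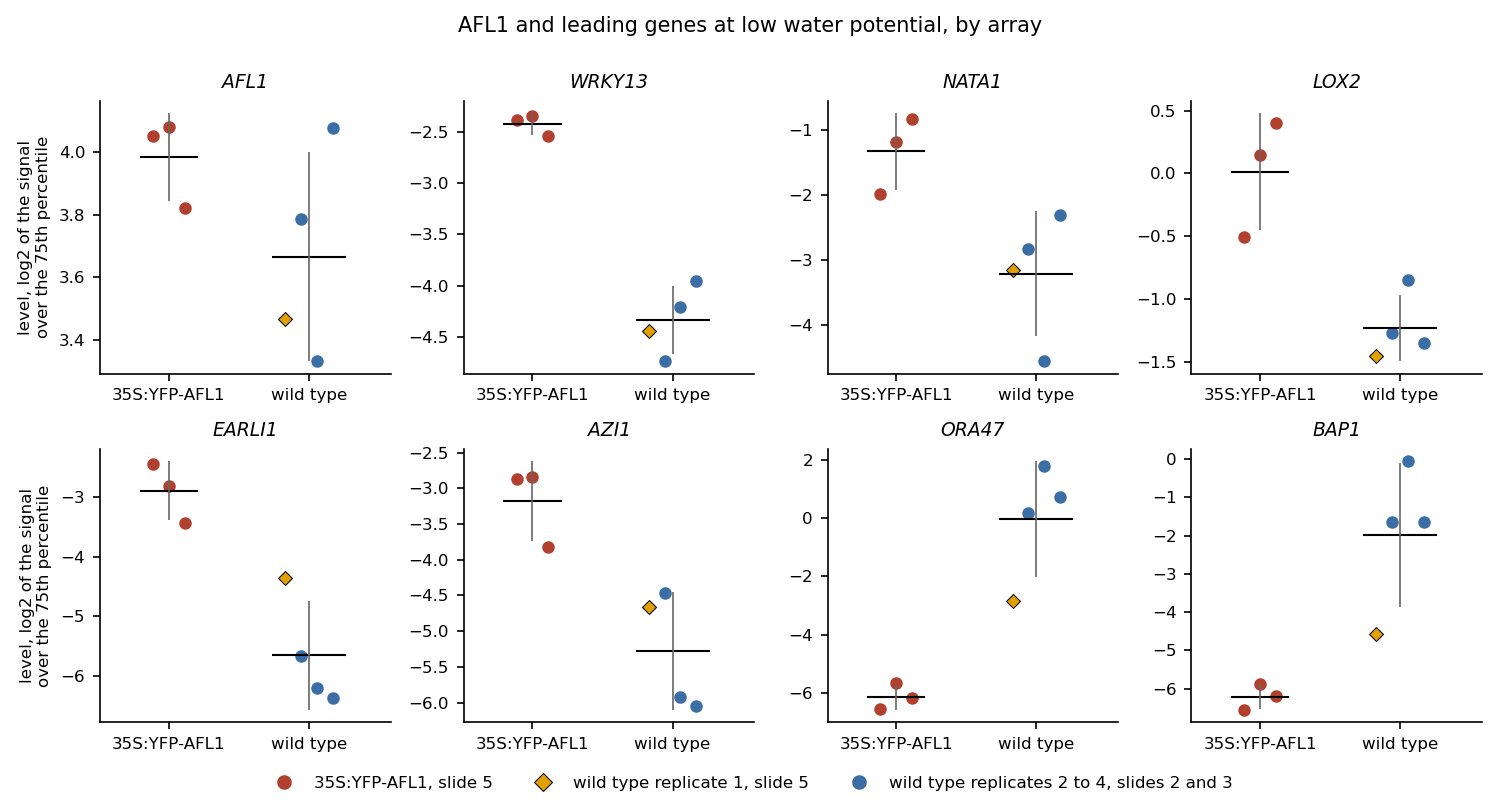
Levels (log2 of the signal over the array's 75th percentile) of AFL1 and 7 leading genes in each array at low water potential, with 35S:YFP-AFL1 on the left, wild type on the right and wild-type replicate 1, the array on the same slide, as a diamond. Horizontal lines are group means and vertical lines SDs (n = 3 and 4), and the groups overlap for AFL1 only.

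Across all genes, 397 of 18307 (2.17%) were called at an adjusted p under 0.05 in limma's test over all 14 arrays. Of these 87 (0.475%) were higher and 310 (1.69%) were lower in 35S:YFP-AFL1 seedlings, and 25 of the higher and 229 of the lower genes differed by at least 2-fold. In 395 of the 397 the arrays of the groups did not overlap, which held for 6.41% of all genes on the higher side and 8.13% on the lower side. The median difference was 0.80 for the higher genes (0.62 within slide 5) and -1.35 for the lower genes (-0.995 within slide 5), beside 0.0041 for all genes tested. All 397 kept their sign within slide 5, which for groups that do not overlap follows from the values. The within-slide size was at least 0.5 of the difference in 319 of them and less in 78, with a median ratio of 0.764. Wild-type replicate 1 lay below the other 3 wild-type arrays in 172 of the 310 lower genes and above them in 48 of the 87 higher genes, against 31.5% and 37.2% of all genes tested. The fit that took slide as a block called 62 genes (0.339%), of which 10 were among the 397. Without 35S:YFP-AFL1 replicate 3 the count fell to 12 genes, without replicate 2 to 48, and without wild-type replicate 1 it was 3523. Of the 70 called genes that the naming rule gave, only WRKY13 and EXPA11 kept their call whichever of the 14 arrays was left out. In a fit of only the 7 arrays at low water potential, 0 of the 70 were called.

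**Figure D2:**
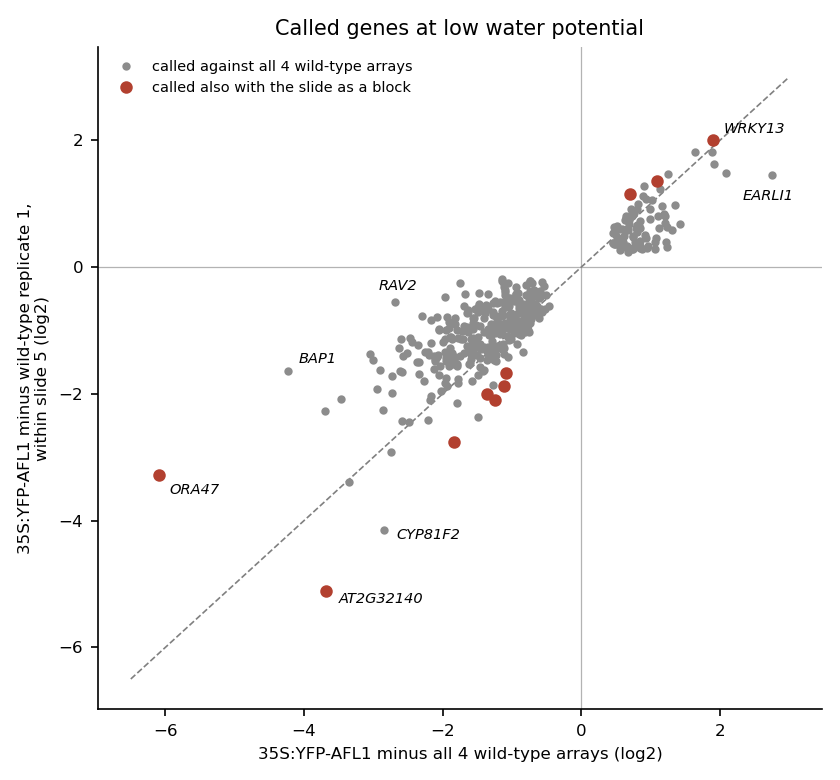
Difference between 35S:YFP-AFL1 and wild type (log2) for the 397 called genes, against all 4 wild-type arrays (x axis) and against wild-type replicate 1 within slide 5 (y axis). The dashed line marks equal values, and the 10 large points are the genes called in both fits, among them WRKY13, ORA47 and AT2G32140.

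WRKY13, a transcription factor known for promoting lignified walls in stems, was the only higher gene named here that kept its call whichever array was left out. Its level was -2.39, -2.34 and -2.55 in 35S:YFP-AFL1 seedlings, against -4.44, -4.74, -4.21 and -3.96 in wild type, where no array measured it well above background. It was at least 3.33-fold higher (adjusted p = 5.03e-04). Such a bound divides the brighter group's mean by the faintest signal still counted as well above background on the dimmer arrays, or by the probe's own signal there if higher. The measured difference was 1.91 ± 0.16, with 2.01 within slide 5 (adjusted p = 0.00594) and 1.99 on control plates. The control-plate difference was 1.90 within slide 4. The highest adjusted p with any array left out was 0.00871, but WRKY13 was not called in the fit of only the 7 arrays at low water potential.

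A pair of genes for hybrid proline-rich lipid transfer proteins, EARLI1 and AZI1, were called higher, with no wild-type array well above background. AZI1 is known for its part in systemic defence priming. EARLI1 stood at -2.45, -2.81 and -3.43 in 35S:YFP-AFL1 seedlings, against -4.36, -5.66, -6.19 and -6.37 in wild type, and was at least 2.46-fold higher (adjusted p = 0.0215). AZI1 stood at -2.87, -2.84 and -3.82 in 35S:YFP-AFL1 seedlings, against -4.67, -4.46, -5.92 and -6.05 in wild type, and was at least 1.99-fold higher (adjusted p = 0.0187). The measured differences of 2.75 and 2.096 were 1.46 and 1.49 within slide 5, and both calls were lost without any 1 of the 3 35S:YFP-AFL1 arrays (highest adjusted p 0.0854 and 0.0834). The list of lipid transfer and hybrid proline-rich proteins held 14 tested genes. Of these, EARLI1 and AZI1 were called higher (0.475% of all genes) and PRP1 and PRP3, described with the root hairs, lower (1.69% of all genes).

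LOX2 and NATA1, both of the jasmonate pathway, were called higher. LOX2, the chloroplast lipoxygenase of jasmonate synthesis, stood at -0.50, 0.15 and 0.40 in 35S:YFP-AFL1 seedlings, against -1.46, -1.27, -0.85 and -1.35 in wild type (difference 1.25 ± 0.27, within slide 5 1.47, adjusted p = 0.0335). Its other 3 probes gave 0.76 to 1.53. NATA1, a jasmonate-inducible acetyltransferase of ornithine and diamines, stood at -1.98, -1.18 and -0.83 in 35S:YFP-AFL1 seedlings, against -3.15, -2.84, -4.56 and -2.30 in wild type (1.88 ± 0.42, within slide 5 1.82, adjusted p = 0.0384), where 3 of the 4 arrays were well above background. LOX2 was the only called gene among 16 of the jasmonate synthesis list, which also held genes of hormone turnover (median 0.05). NATA1 was the only one among 15 of jasmonate output (median 0.65, within slide 5 0.61). Over all genes, 0.475% were called higher. In the synthesis list the groups did not overlap for 2 genes that were higher in 35S:YFP-AFL1 (6.41% of all genes) and for 4 that were lower (8.13% of all genes). The lower ones were AOC3 (-1.71) and OPR3 (-0.96) of synthesis, and CYP94B3 (-1.80) and CYP94B1 (-0.66) of hormone turnover. At an unadjusted p under 0.05 the synthesis list held 4 higher and 5 lower genes, beside 3692 of all 18307 genes tested, higher and lower together. In the output list 11 of 15 differences lay above 0. The groups did not overlap for 7 genes that were higher in 35S:YFP-AFL1 (6.41% of all genes) and for 1 that was lower (8.13% of all genes). Among the 7 were the storage proteins VSP1 (1.03, adjusted p = 0.145) and VSP2 (0.95, adjusted p = 0.259). Within slide 5 VSP1 and VSP2 differed by 0.37 and 0.35. The median level of the output list was 0.67, 0.78 and 0.93 in 35S:YFP-AFL1 arrays, against 0.06, -0.03, -0.22 and 0.16 in wild-type arrays, on a scale where the wild-type mean of each gene is 0. The calls of LOX2 and NATA1 were lost without 35S:YFP-AFL1 replicate 2, and without replicate 3 (adjusted p = 0.172 and 0.183), and also without wild-type replicate 2.

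Other higher genes were of mixed function. PRX52, a wall peroxidase well above background on 2 of the 4 wild-type arrays, differed by 1.43, the clock transcription factor gene BOA by 1.359, the flavonoid glycosyltransferase gene UF3GT by 1.21, and the beta-amylase gene BAM5 by 0.80. The cytochrome P450 genes CYP722A1 (1.08) and CYP712A1 (0.94), the inositol oxygenase gene MIOX1 (1.06), ROH1 (0.97) and the root meristem peptide gene RGF1 (0.87) were also higher. Within slide 5 these 9 differences were 0.68, 0.98, 0.81, 0.55, 0.46, 1.08, 0.29, 0.33 and 0.29 in the same order. MSH7, a mismatch repair gene, and DCF, which adds ferulate to cutin, were called higher with signals that stayed below background in both groups.

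A group of root hair genes was lower. Of 19 tested genes of root hairs and root epidermis 6 were called, all lower, with a list median of -1.34 (within slide 5 -1.14), beside 1.69% of all genes called lower and a median of 0.00. In all, 18 of the 19 differences lay below 0, and COBL9, a root hair gene of cell shape, was at 0.15. RHS13, a root hair-specific wall protein gene, stood at -4.92, -5.33 and -6.05 in 35S:YFP-AFL1 seedlings, against -3.18, -3.18, -1.68 and -2.24 in wild type, and was at least 2.56-fold lower (adjusted p = 0.0193). PRP3, a proline-rich structural wall protein of root hairs, was above background in every array, at -2.22, -2.62 and -3.42 in 35S:YFP-AFL1 seedlings, against -0.79, -1.01, -0.84 and -0.27 in wild type. It differed by -2.03 ± 0.37 (within slide 5 -1.96, adjusted p = 0.0185), and its other probe by -0.42. PRP1 was at least 2.57-fold lower, the arabinogalactan protein gene AGP3 at least 2.49-fold, the peroxidase gene RHS19 at least 2.32-fold and the expansin gene EXPA18 at least 1.31-fold (adjusted p = 0.0140, 0.0425, 0.0306 and 0.0121). Measured within slide 5 RHS13 differed by -2.25, PRP1 by -2.43, AGP3 by -1.34, RHS19 by -2.09 and EXPA18 by -1.33. Regulators of root epidermal cells were not called, neither RHD6 (-1.46) and RSL4 of hair cells nor WER (-1.34) of non-hair cells. RSL4, not well above background in the 35S:YFP-AFL1 arrays, was at least 1.34-fold lower by the bound (adjusted p = 0.051). The median level of the list was -0.74, -1.47 and -1.54 in 35S:YFP-AFL1 arrays, against -0.09, -0.14, 0.32 and 0.02 in wild-type arrays, without overlap. In whole seedlings, fewer cells of a type and less RNA per cell cannot be told apart. All 6 calls were lost without 35S:YFP-AFL1 replicate 2 or without replicate 3.

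Genes of the Casparian strip, the lignin band that seals the root endodermis, were also among the lower genes. Of 12 tested genes 6 were called, all lower (median -0.75, within slide 5 -0.45), beside 1.69% of all genes. MYB36, the transcription factor that switches on Casparian strip genes, stood at -2.37, -2.63 and -2.71 in 35S:YFP-AFL1 seedlings, against -1.66, -1.69, -0.55 and -1.50 in wild type (-1.22 ± 0.24, adjusted p = 0.0240). CASP1, a scaffold protein of the strip, stood at -2.68, -2.98 and -3.69 in 35S:YFP-AFL1 seedlings, against -2.18, -1.67, -0.86 and -1.90 in wild type (-1.46 ± 0.29, adjusted p = 0.0244). The peroxidase gene PER72 differed by -1.35, the receptor kinase gene SGN3 by -0.72 and the dirigent protein gene ESB1 by -0.98, and CASP5 was at least 2.18-fold lower. Within slide 5 MYB36 differed by -0.91, CASP1 by -0.93, PER72 by -1.26 and CASP5 by -1.56. The other 2 probes of PER72 gave -0.52 and 0.50 against all wild-type arrays. CASP2, of the same family as CASP1, differed by 0.67 without a call, and SCR, which specifies the endodermis, by 0.18. On control plates the list median was -0.91 (within slide 4 -0.88), where no gene of the list was called. Without 35S:YFP-AFL1 replicate 2, or without replicate 3, no gene of the list was called.

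Other markers of root and shoot cell types were not called. The 8 tested genes of other root cell types had a median difference of 0.03 (within slide 5 -0.19), with the largest values for the potassium channel gene AKT1 (-0.94, adjusted p = 0.0665) and RCH1 (-0.43). The root tip markers PLT1, PLT2 and SMB were well above background on 0 of the 7 arrays and were not tested, and WOX5, well above background on 3, did not pass the filter. The 15 genes of the stomatal lineage, guard cells and shoot epidermis had a median of -0.04, with KAT1 at 0.86 and EPFL9 at -0.97. The part of seedling composition in the results was not tested.

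**Figure D3:**
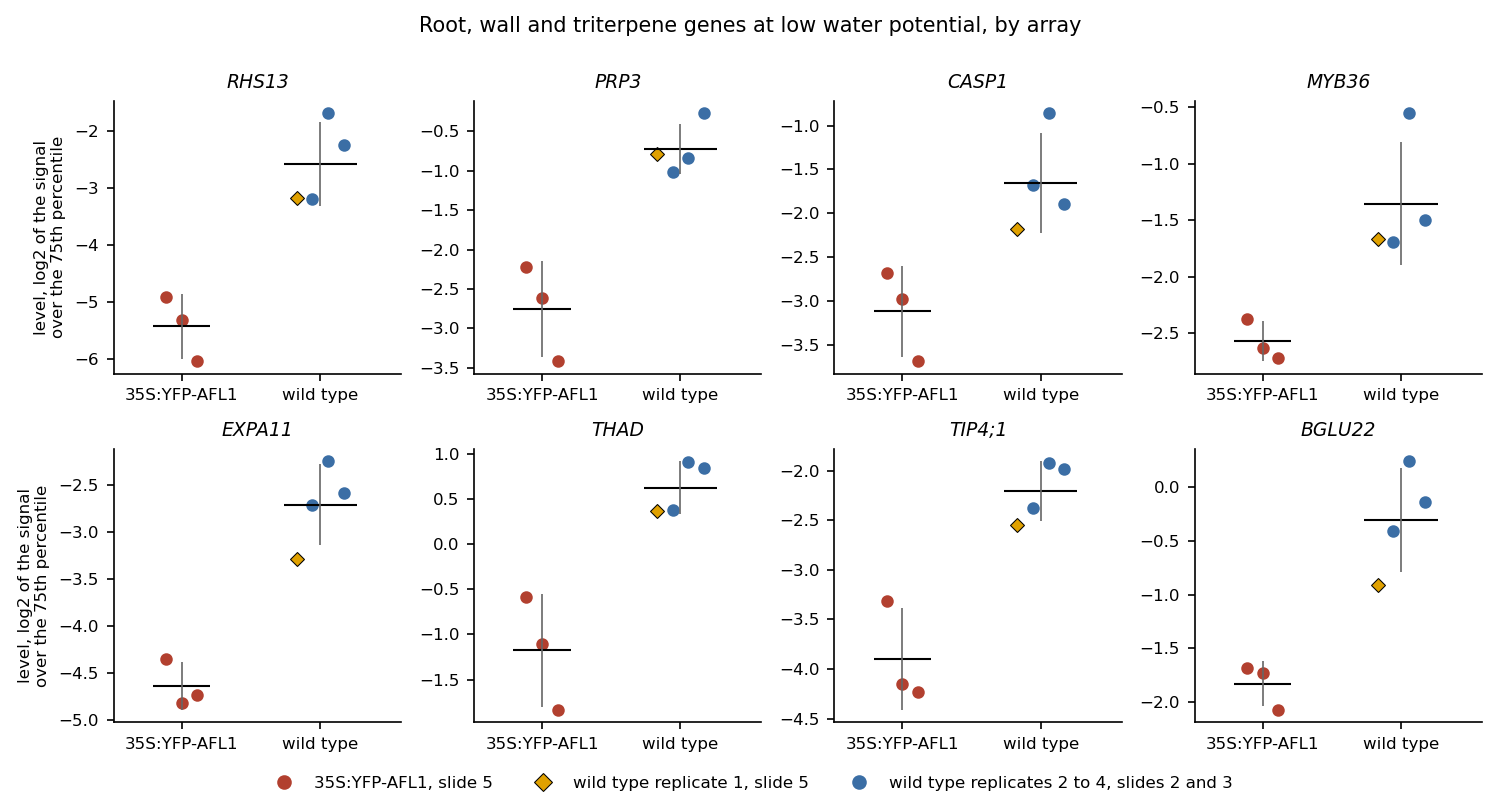
Levels (log2 of the signal over the array's 75th percentile) of 8 genes of root hairs, endodermis, cell wall, triterpene synthesis, water transport and ER bodies, all called lower, in each array at low water potential. Symbols and lines are as in the plot of AFL1 and leading genes, and in each panel all 3 35S:YFP-AFL1 arrays lie below all 4 wild-type arrays.

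Several wall-loosening genes were lower. Expansins loosen the wall and xyloglucan endotransglucosylases (XTH) recut its tethers, both in growing cells. Of 35 tested genes 8 were called, all lower (median -0.58, within slide 5 -0.48, 1.69% of all genes called lower), and in 17 the 3 35S:YFP-AFL1 arrays lay below all 4 wild-type arrays, as in 8.13% of all genes. EXPA11 stood at -4.35, -4.82 and -4.73 in 35S:YFP-AFL1 seedlings, against -3.29, -2.71, -2.25 and -2.59 in wild type, and was at least 2.32-fold lower. Its adjusted p of 0.00724 stayed under 0.05 with any array left out, the highest being 0.0330. In the fit of only the 7 arrays at low water potential EXPA11 was not called. EXPA8 was at least 1.71-fold and EXPA14 at least 1.70-fold lower (adjusted p = 0.0291 and 0.0146), although 1 of the other 2 probes of EXPA8 gave 0.20. Measured within slide 5 EXPA11 differed by -1.35, EXPA8 by -1.38 and EXPA14 by -1.57. EXPB1 (-1.098), XTH15 (-1.56, with 1 of the 3 35S:YFP-AFL1 arrays well above background) and XTH8 (-0.94) were also called, as was XTH6, below background in both groups. Of 22 wall peroxidase, pectin and extensin-type genes 4 were called, all lower (median -0.64, within slide 5 -0.32), again beside 1.69% of all genes called lower. These were the fasciclin-like arabinogalactan protein genes FLA9 (-1.54) and FLA2 (-1.04), the polygalacturonase inhibitor gene PGIP1 (-1.04) and EXO, a growth-promoting secreted protein gene (-2.30). Within slide 5 FLA9 differed by -0.80, FLA2 by -1.16, PGIP1 by -0.62 and EXO by -0.77. No gene was called among 18 of cellulose and secondary wall synthesis (median 0.00), where FLA12 differed by -0.42 and VND7 by -0.34, and within slide 5 all 18 lay below 0 with a median of -0.305, beside 53.5% of all genes below 0 and a median of -0.027. Without 35S:YFP-AFL1 replicate 2, 2 expansin and XTH genes were called, without replicate 3 only EXPA11, and no gene of the wall peroxidase list was called in either fit.

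Genes of the root triterpene clusters, neighbouring genes that make thalianol and marneral, were among the lower genes. Of 7 tested genes 3 were called, all lower (median -1.80, within slide 5 -1.26), where 1.69% of all genes were. THAD, the thalian-diol desaturase gene, stood at -0.59, -1.10 and -1.83 in 35S:YFP-AFL1 seedlings, against 0.36, 0.38, 0.91 and 0.84 in wild type (-1.80 ± 0.29, within slide 5 -1.53, adjusted p = 0.0123). THAS1, the thalianol synthase gene, stood at -1.24, -1.70 and -2.68 in 35S:YFP-AFL1 seedlings, against -0.61, 0.80, 1.19 and 1.61 in wild type, so that replicate 1 was the nearest wild-type array (-2.63, within slide 5 -1.27, adjusted p = 0.0246). CYP71A16, the marneral oxidase gene, was at least 2.35-fold lower (adjusted p = 0.0210), with a measured difference within slide 5 of -1.50. On control plates these 3 genes differed by -1.03, -1.73 and -2.41 without a call, and within slide 4 by -0.65, -0.80 and -1.69. At low water potential none was called without 35S:YFP-AFL1 replicate 2, or without replicate 3.

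Among 22 aquaporins 3 were called, all lower (1.69% of all genes), while the list median was -0.14. NIP1;1, a channel of the NOD26-like group, stood at -2.87, -3.90 and -3.97 in 35S:YFP-AFL1 seedlings, against -1.93, -0.44, -0.22 and -1.39 in wild type (-2.58, within slide 5 -1.65, adjusted p = 0.00848). The tonoplast channel gene TIP4;1 differed by -1.69 and the root plasma membrane channel gene PIP2;4 by -1.17 (within slide 5 -1.35 and -0.78). NIP1;1 and TIP4;1 were well above background on 1 of the 3 35S:YFP-AFL1 arrays. Of 17 genes of ER bodies, the ER-derived glucosidase stores in which NAI2 acts, 3 were called, all lower (1.69% of all genes called lower, list median -0.45, within slide 5 -0.55). The beta-glucosidase genes BGLU22 and BGLU21 differed by -1.52 and -0.82, and the lipase-like gene GLL23 by -1.03, with within-slide differences of -0.92, -1.02 and -0.80. In all, 12 of the 17 differences lay below 0 and 5 above. The highest was 1.15, without overlap of the groups, for the glucosidase gene BG1, which is given again with ABA breakdown. No aquaporin or ER body gene was called without 35S:YFP-AFL1 replicate 2, or without replicate 3.

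A large lower bound belonged to ORA47, an ethylene-response-type transcription factor known for activating jasmonate and ABA synthesis genes. It stood at -6.54, -5.67 and -6.19 in 35S:YFP-AFL1 seedlings, not well above background on any of them, against -2.85, 0.18, 1.79 and 0.74 in wild type. It was at least 14.8-fold lower (adjusted p = 0.0112). Wild-type replicate 1 lay between the groups, and the measured difference of -6.10 was -3.28 within slide 5 (adjusted p = 0.0213). Without 35S:YFP-AFL1 replicate 3 the adjusted p was 0.0546. BAP1, an inhibitor of cell death, stood at -6.54, -5.88 and -6.19 in 35S:YFP-AFL1 seedlings, against -4.56, -1.64, -0.06 and -1.63 in wild type. Against all wild-type arrays it was at least 3.86-fold lower (adjusted p = 0.0399). No array of slide 5 measured BAP1 well above background, so the bound rests on wild-type arrays of other slides, and within slide 5 it differed by -1.64. The ubiquitin ligase gene PUB22 (-3.04, well above background on 1 of the 3 35S:YFP-AFL1 arrays) and RAV2, a repressor of flowering (-2.69), were also lower. As for BAP1, wild-type replicate 1 was the lowest wild-type array for both and replicate 3 the highest. Their differences within slide 5 were -1.38 and -0.55. CYP81F2, which modifies indole glucosinolates, differed the other way between wild-type arrays, at -4.69, -5.88 and -5.37 in 35S:YFP-AFL1 seedlings, against -1.16, -3.54, -1.78 and -3.39 in wild type. It was at least 2.75-fold lower (adjusted p = 0.0362, measured within slide 5 -4.16). It was the only called gene among 15 of indole glucosinolates and camalexin (median -0.37, within slide 5 -0.73), beside 1.69% of all genes called lower. The acid phosphatase gene PAP7 (-2.95), the carboxypeptidase-like gene scpl1 (-2.61), and the transferase genes UGT76D1 (at least 1.21-fold lower) and AT3G45070 (at least 1.1-fold lower) were also among the lowest called genes. PAP7 and scpl1 were each measured well above background on 1 of the 3 35S:YFP-AFL1 arrays, and within slide 5 they differed by -1.93 and -1.13. UGT76D1 and AT3G45070 were each well above background on 2 of the 4 wild-type arrays, and on no array of slide 5. Within slide 5 these 2 differed by -1.40 and -1.18.

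BAP1 was the only called gene among 29 of the rapid touch and wound response, beside 1.69% of all genes called lower. It showed a pattern common to that list. The list median was -1.89 against all wild-type arrays and 0.06 within slide 5, and all 29 differences lay below 0. Wild-type replicate 1 lay below the other wild-type arrays in 27 of the 29 genes. The median level of the list was -1.88, -1.82 and -1.80 in 35S:YFP-AFL1 arrays, against -1.63, 0.18, 1.28 and 0.34 in wild-type arrays. CML38, a calmodulin-like gene chosen here after its values were seen, stood at -6.42, -5.88 and -6.19 in 35S:YFP-AFL1 seedlings, against -6.38, 1.26, 2.36 and 1.098 in wild type (adjusted p = 0.100), with no 35S:YFP-AFL1 array and 3 wild-type arrays well above background. Here the 4 arrays of slide 5 stood together and the 3 wild-type arrays of other slides stood apart.

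**Figure D4:**
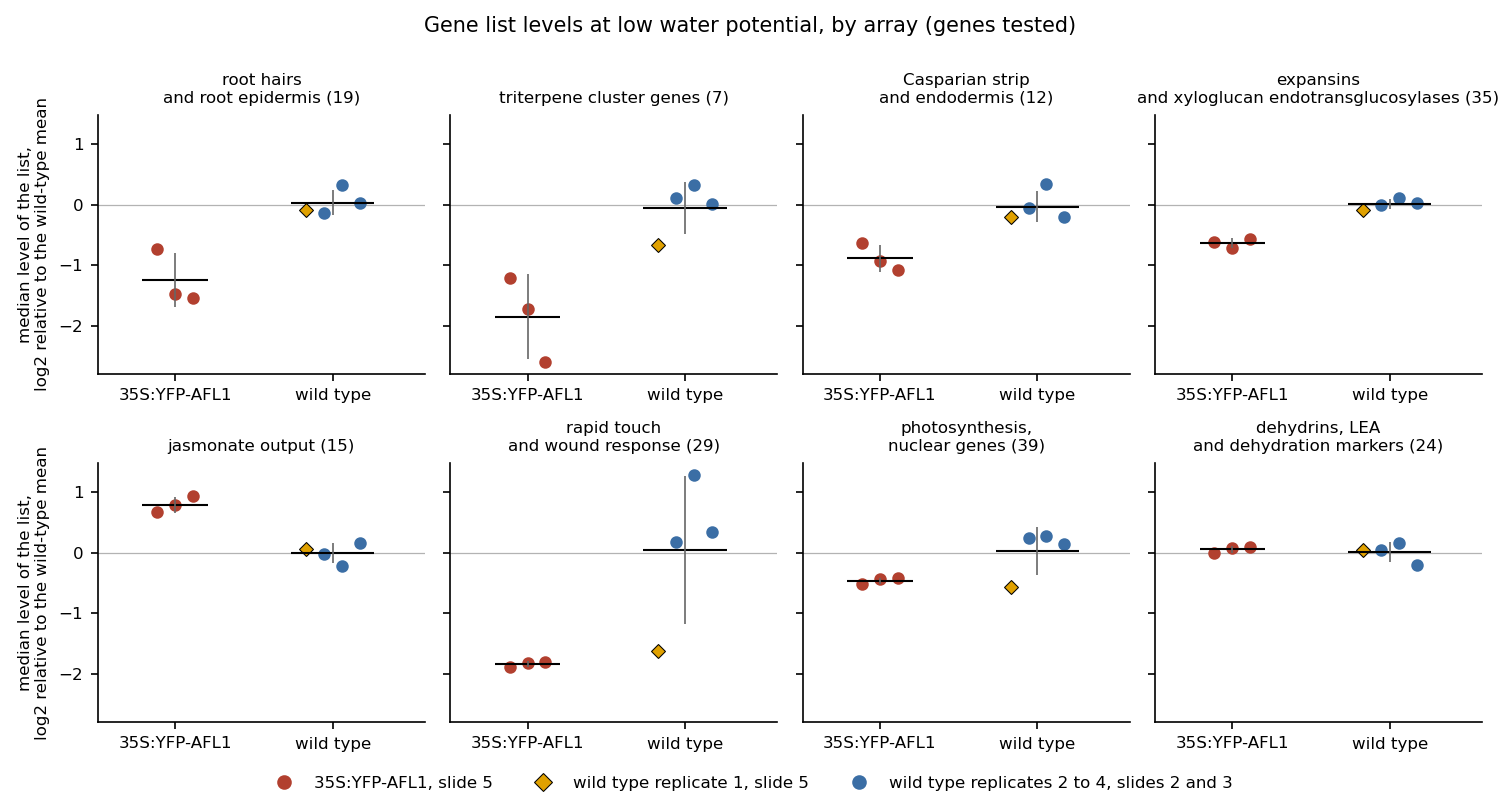
Median level of 8 gene lists in each array at low water potential (log2, each gene set to 0 at its wild-type mean), with the number of tested genes in brackets. Symbols and lines are as in the plot of AFL1 and leading genes. In the root hair, endodermis, expansin and jasmonate output lists wild-type replicate 1 lies with the other wild-type arrays, and in the touch response and photosynthesis lists it lies with the 35S:YFP-AFL1 arrays.

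In other lists too the median lay beyond 0.2 in size and turned sign within slide 5. Jasmonate repressors and MYC factors had a median of -0.53 (within slide 5 0.14), with JAZ7 at -1.98. JAZ8, with no 35S:YFP-AFL1 array well above background, was at least 3.85-fold lower by the bound but not called (adjusted p = 0.0709), with wild type at -5.09, -1.51, -0.080 and -1.23. Nuclear photosynthesis genes had -0.51 (0.12) with 1 call of 39, LHCB2.2, a light-harvesting protein gene, at -1.47 (within slide 5 -0.40, adjusted p = 0.0303). Drought and ABA transcription factors had -0.23 (0.15), with ZAT12 at -1.70 and CBF2 at least 2.03-fold lower by the bound without a call (adjusted p = 0.203), where wild-type replicate 1 stood at -6.38 and the other wild-type arrays at -2.17, -0.89 and -2.16. Senescence and starvation genes had -0.23 (0.18), with SEN1 at -2.29 and DIN6 at -2.02. Auxin response genes had -0.22 (0.09), with IAA6 and IAA19 below background in both groups. Methionine-derived glucosinolate genes had 0.35 (-0.05), with CYP83A1 at 1.77 and MAM1 at 1.40. Flavonoid genes had 0.50 (-0.02) with UF3GT called higher and PAL2, the entry enzyme of the phenylpropanoid pathway, lower at -0.62 (within slide 5 -0.49). Apart from LHCB2.2, UF3GT and PAL2, no gene of these lists was called, beside 1.69% of all genes called lower and 0.475% called higher.

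**Figure D5:**
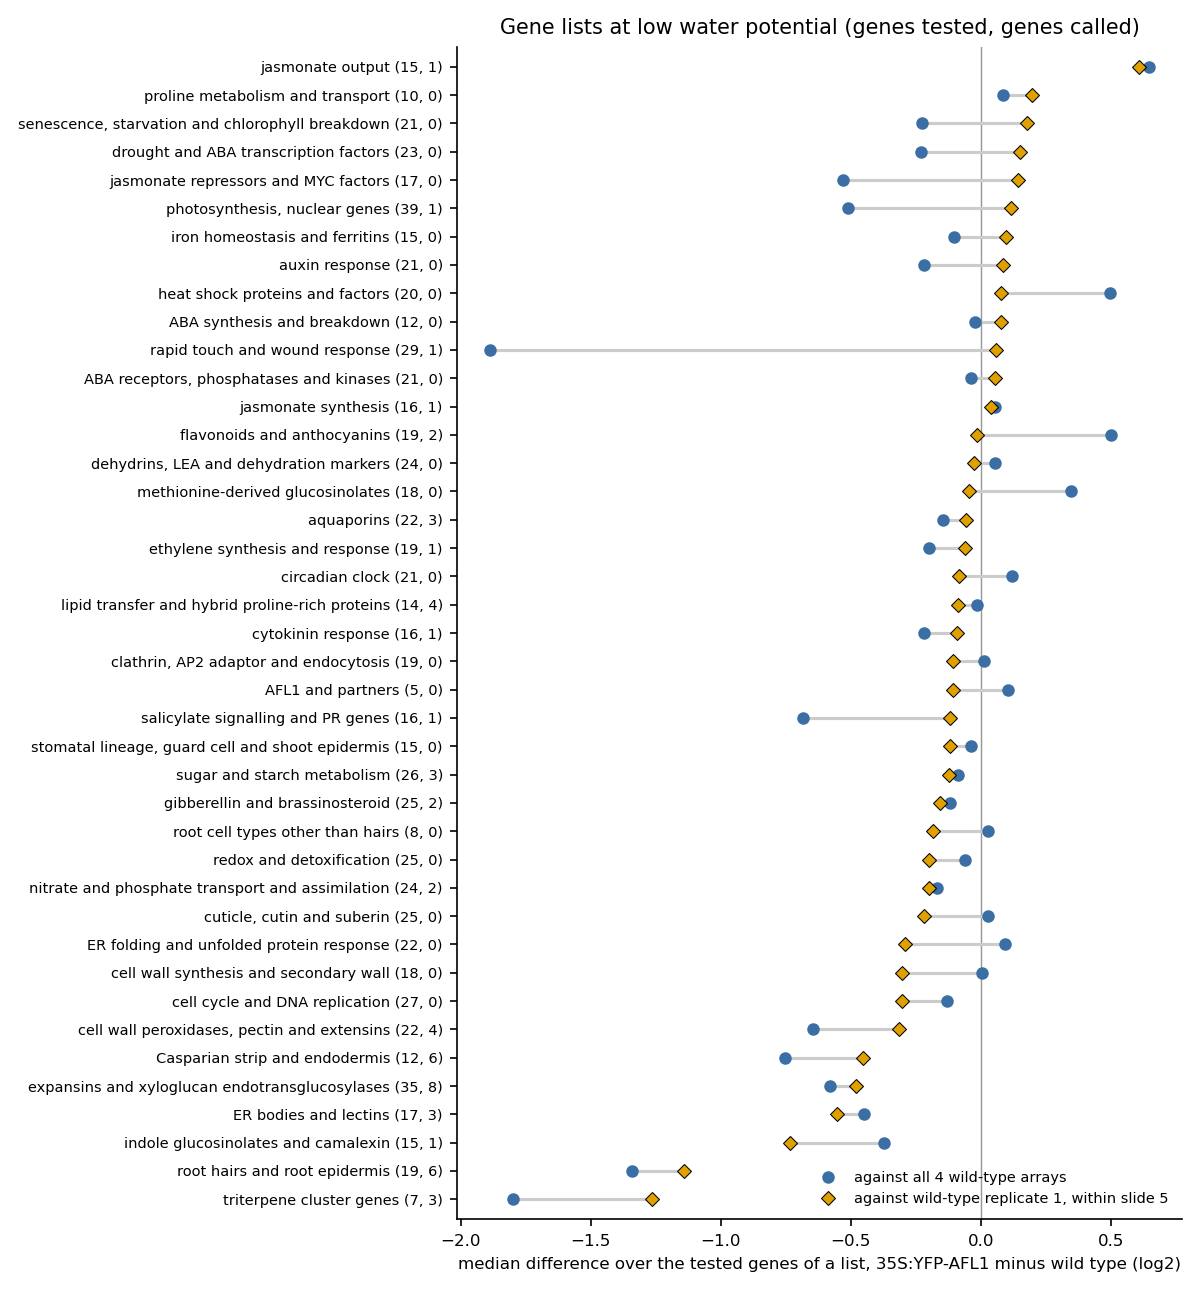
Median difference, 35S:YFP-AFL1 minus wild type (log2), of the tested genes of each of 41 gene lists, against all 4 wild-type arrays (circles) and against wild-type replicate 1 within slide 5 (diamonds), ordered by the within-slide value. Brackets hold the genes tested and the genes called. Triterpene and root hair genes lie lowest within slide 5, and the touch response list lies at 0.06 within slide 5 and at -1.89 against all wild-type arrays.

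The lists closest to the known response to low water potential held no called gene. The 10 genes of proline metabolism and transport had a median of 0.09 (within slide 5 0.20) and ran from -0.25 for P5CS1, the rate-limiting synthesis enzyme (within slide 5 0.27), to 0.48 for the transporter gene PROT1, with P5CDH, which breaks proline down, at 0.44 (adjusted p = 0.115). The 95% interval of P5CDH was 0.14 to 0.74 and that of PROT1 -0.13 to 1.096. The 24 genes of dehydrins, late embryogenesis abundant proteins and other markers of dehydration had a median of 0.05, and their lowest values were -0.85 for ERD15 and -0.57 for KIN2. ABA synthesis and breakdown (12 genes, median -0.02) included the ABA hydroxylase genes CYP707A3 at -2.38, CYP707A2 at -1.17 and CYP707A4 at 0.65, and BG1, a glucosidase that frees ABA from its glucose ester, at 1.15 (adjusted p = 0.117). Within slide 5 CYP707A3 differed by -0.39, CYP707A2 by 0.32, CYP707A4 by 0.51 and BG1 by 0.77. For CYP707A4 and BG1 the groups did not overlap and 35S:YFP-AFL1 was higher (6.41% of all genes). For 2 other genes of the list, among them CYP707A3, the groups did not overlap and 35S:YFP-AFL1 was lower (8.13% of all genes). ABA receptors, phosphatases and kinases (21 genes, median -0.04) included the receptor gene PYL8 at -0.90 (within slide 5 0.055). Heat shock genes had a median of 0.50 (within slide 5 0.08). In them HSP21, a plastid chaperone gene, stood at 1.755, 2.04 and 1.98 in 35S:YFP-AFL1 seedlings, against -0.48, 1.23, 0.58 and 1.18 in wild type. It differed by 1.296 (adjusted p = 0.0625) and by 2.40 within slide 5, where it was called (adjusted p = 0.00980).

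Lists of growth, transport and the cell interior also held no call. The cell cycle list had a median of -0.13 over 27 genes and of -0.305 within slide 5, and its genes CYCB2;4 and ORC2 were well above background on 1 of the 7 arrays each. ER folding genes had 0.09 over 22 (ERDJ3A 0.70, BIP2 0.65) and -0.29 within slide 5, where 21 of the 22 lay below 0. Clathrin and endocytosis genes had 0.01 over 19 and -0.11 within slide 5, where 16 lay below 0. In them the membrane fusion genes SYP122 and SYP121 differed by -2.14 and -0.87, and within slide 5 by -0.36 and -0.048. Cuticle and suberin genes had 0.03 over 25 (within slide 5 -0.22), with CYP86A1 at -0.995 and GPAT6 not well above background in any 35S:YFP-AFL1 array. Iron genes had -0.10 over 15 (within slide 5 0.095), with BHLH101 at -1.24 and FER3 at -0.91, which turned to 0.65 and 0.18 within slide 5. Redox genes had -0.06 over 25 (within slide 5 -0.20), with RBOHD at -1.73 and GSTU25 at -1.22. The clock list, without BOA, had 0.12 over 21 (within slide 5 -0.086), with RVE1 at -1.25 and LHY1 at -0.73.

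Few members of each hormone, nutrient and sugar list were called, most of them lower. Over all genes, 1.69% were called lower and 0.475% higher. ARR5, a type-A response regulator that damps cytokinin signalling, was at least 2.35-fold lower (adjusted p = 0.0167) and the only called gene of 16 in the cytokinin list. Wild-type replicate 1 was the lowest wild-type array for ARR5, at -4.03, and the measured difference within slide 5 was -1.13. The gibberellin-regulated peptide genes GASA1 and GASA4 differed by -1.23 and -1.25 (within slide 5 -0.94 and -0.54), 2 of 25 genes of gibberellin and brassinosteroid. ACO1, of ethylene synthesis, was called lower (adjusted p = 0.00795) with 1 of the 7 arrays well above background. PAD4, of salicylate signalling, was at least 1.45-fold lower (measured within slide 5 -0.53). It was the only called gene of 16 in its list (median -0.68, within slide 5 -0.12). In nitrogen use the nitrate reductase gene NIA1 differed by -0.76 (within slide 5 -0.64) and the glutamine synthetase gene GLN1;4 was called lower with 2 of the 7 arrays well above background, 2 of 24 genes. In sugar metabolism the wall invertase gene CWINV1 differed by -1.17 and the transporter gene ERD6 was at least 1.87-fold lower, while BAM5 was higher, 3 of 26 genes. Measured within slide 5 CWINV1 differed by -1.05 and ERD6 by -1.19.

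The 10 genes called both against all wild-type arrays and with the slide as a block were WRKY13, AT5G67020 and AT1G58602 on the higher side, and ORA47, AT2G32140, CYP705A30, AT1G23201, AT2G19300, AT1G36940 and BRS1 on the lower side. AT2G32140 stood at -6.61, -5.88 and -6.19 in 35S:YFP-AFL1 seedlings, against -1.12, -3.46, -1.96 and -3.63 in wild type, and was at least 2.6-fold lower (adjusted p = 0.0210). CYP705A30, a cytochrome P450 gene, stood at -3.81, -4.35 and -3.50 in 35S:YFP-AFL1 seedlings, against -1.12, -2.62, -2.08 and -2.35 in wild type (-1.84 ± 0.35, within slide 5 -2.76), with 2 of the 3 35S:YFP-AFL1 arrays well above background. AT1G23201, AT2G19300 and AT1G36940 were at least 1.66-fold, 1.25-fold and 1.15-fold lower. AT5G67020 and BRS1, a carboxypeptidase gene linked to brassinosteroid signalling, were below background in both groups. AT1G58602 differed by 0.71 ± 0.16, but its 4 other probes gave -0.52 to 0.27. Of the 52 genes called with the slide as a block only, 51 had wild-type replicate 1 outside the range of the 6 other arrays, which was so for 40.4% of all genes.

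On control plates 4 genes (0.0218%) were called between the genotypes, and WRKY13 was the only one of them among the 397. Of the 310 lower genes 226 were below 0 on control plates as well, where 46.6% of all genes were, and 59 of the 87 higher genes were above 0. Against the 1 wild-type control array of the same slide, 213 of the lower genes were below 0 and 49 of the higher genes above 0. The share of all genes within that slide was not counted. The median differences on control plates were -0.29 for the lower and 0.11 for the higher genes. Limma's test of the difference between the stress responses, which took no account of slide, called 0 genes, with 1782 at an unadjusted p under 0.05 and a smallest adjusted p of 0.0839. For WRKY13 this difference was -0.08 (adjusted p = 0.934), for ORA47 -4.27 (adjusted p = 0.332) and for EARLI1 3.15 (adjusted p = 0.200).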

How the data were processed

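Total RNA of whole seedlings was labelled and hybridised to 14 single-colour Agilent arrays. Per the file headers, the authors deposited spot intensity values from Agilent Feature Extraction 10.7.1.1, with the background already subtracted in the processed signal. The deposited value table held the same intensities (largest relative difference 6e-04), linear and not centred, with column medians of 137.8 to 288.5. Probes were named through the TAIR10.1 gene table (34358 of 43603 matched), and no coordinates or sequences were used.

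Log2 processed signals were scaled to each array's 75th percentile. A probe was kept where 3 or more arrays of any group measured it well above background, and the brightest probe stood for a gene (18307 genes). The test was limma 3.58.1 (R 4.3.3), with 4 group means fitted to all 14 arrays, with Benjamini-Hochberg adjustment over all genes and calls at an adjusted p under 0.05. In simulated data for this comparison over 18307 genes, 69 of 100 genes changed by log2 1 and 88 of 100 changed by log2 2 were called, with 8 false calls. The simulated arrays were independent and had no slide effect, so these counts say nothing on calls that differences between slides can give. The 75th percentile signal ran from 796.2 to 1591 over the arrays, 59.5% to 67.0% of spots were well above background, none was saturated, and the number of arrays limits the precision.

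The genes named were AFL1 and its partners, the 15 highest and 15 lowest called genes with a name and no overlap of the groups, up to 4 called members of each of 41 lists (up to 2 uncalled where none was called), and the genes called also with the slide as a block. The other list members given (ESB1, SGN3, XTH6, XTH8, XTH15, EXPB1, CASP2, SCR, COBL9, RSL4, RHD6, WER, VSP1, VSP2, CYP94B3, CYP94B1, AOC3, OPR3, CYP707A4, BG1, P5CS1 and CML38) were chosen after their values were seen. The members and lists were chosen with earlier results of these data known. Replicate numbers did not pair the arrays (correlations of same-numbered arrays -0.11 to 0.02). Alternatives covered arrays, slide, scan day, background, normalization, filter, probe choice and weights. The normexp background correction took the median signal in place of the mean signal that was planned.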

Additional observations from a re-analysis of the deposited data

Results flagged for a closer look

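In 7 of the 115 named genes, 1 of the 4 wild-type arrays at low water potential stood apart from the other 3 by Dixon's test, which flags about 1 group in 20 by chance. In 6 of the 7 the array was wild-type replicate 1, each time the lowest. It stood at -3.183 for SEN1, -3.744 for EPFL9, -3.716 for BHLH101, -1.353 for RVE1, -0.7429 for LHY1 and -2.161 for AT14A. For these 6 genes the 35S:YFP-AFL1 arrays lay nearer to wild-type replicate 1 than to the other wild-type arrays, and none was called. The other was wild-type replicate 3, the highest array for MYB36 at -0.5532. MYB36 was called lower, and without that array it differed by -0.95 (limma adjusted p = 0.0189).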

How the results depend on the processing

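The number of calls depended on which arrays entered the fit. The 397 calls (87 higher, 310 lower) became 1 (0 and 1) with only the 7 arrays at low water potential, 62 (26 and 36) with slide as a fixed block, 47 (7 and 40) with slide as a random block (correlation 0.442), 66 (22 and 44) against wild-type replicate 1 only, 3523 (1530 and 1993) against wild-type replicates 2, 3 and 4, and 1 (1 and 0) within the scan day of the 35S:YFP-AFL1 arrays. Normexp gave 634 (174 and 460), no filter on dim probes 237 (34 and 203), a filter on all 14 arrays 187 (48 and 139), and array weights 4158 (1788 and 2370). Quantile normalization, median centring, the mean over probes and the deposited value table gave 350, 412, 368 and 397. Replicate numbers did not pair the arrays, and the replicate block gave 199 calls (23 and 176). Leaving out 1 array gave 12 to 3523 calls, 1 to 1530 higher and 11 to 1993 lower. The counts were 226, 48 and 12 without 35S:YFP-AFL1 replicates 1, 2 and 3, and 3523, 157 and 154 without wild-type replicates 1, 2 and 3. Without control replicate 3 of wild type it was 263. The difference of AFL1 ran from 0.21 to 0.45 with 1 array left out, and 1 other probe gave -0.24.

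Among genes that were not called, the sign turned within slide 5, and likewise against wild-type replicate 1 only, to -0.115 for CYP83A1, -0.17 for MAM1, -0.27 for IAA6, -0.30 for KAT1, -0.11 for ERDJ3A, -0.11 for BIP2, -0.15 for PDIL1-1 and -1.02 for NAI2. It turned to 0.047 for AT14A, 0.14 for KIN2, 0.086 for IAA19, 0.0052 for ERD15, 0.055 for PYL8, 0.18 for FER3, 0.46 for EPFL9, 0.32 for CYP707A2, 0.65 for BHLH101, 0.28 for RVE1, 0.012 for RBOHD, 0.10 for JAZ7, 0.52 for DIN6, 1.65 for SEN1 and 0.16 for CBF2. NAI2 also turned to -0.42 with the random block, -0.14 within the scan day and -0.28 as the mean over probes. With 1 array left out NAI2 ran from -0.14 to 0.48 and ALPHA-ADR from -0.072 to 0.0077, and ALPHA-ADR turned to 0.021 with the replicate block, 0.039 with normexp and 0.014 with array weights. Of the named genes that were called DCF alone turned, to -0.055 with normexp. IAA6 and IAA19 were below background in both groups, and CBF2 in the 35S:YFP-AFL1 arrays. The cause of these changes was not tested. In 97 of the 397 called genes 1 group was not well above background, and 13 more were below background in both groups.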
